A study of Mus musculus with 28 samples.

Results

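The endoplasmic reticulum (ER) folds secreted proteins, and 10 named genes of its folding machinery and stress response were followed in the mouse pituitary: the chaperones Hspa5, Hsp90b1 and Calr, the disulfide isomerases Pdia3, Pdia4 and Pdia6, the co-chaperones Dnajb9 and Sdf2l1, the transcription factor Xbp1 and the degradation factor Herpud1. They were chosen by name, with earlier results of these data known, as 10 of the 32594 genes in the count table. All 10 were measured in every mouse and passed the filter on low counts. Whole pituitaries gave RNA from 28 C57BL/6J mice, 16 females and 12 males, that were 8 weeks old when they arrived. In each sex, 4 groups were made: home cage control, restraint, paradoxical sleep deprivation (PSD, in which small columns above water deprive mice mainly of rapid-eye-movement sleep), and PSD + restraint. PSD lasted 12 h and tissue was taken 18 h after its end, restraint lasted 20 min and tissue was taken 10 min after its end, and every mouse, controls included, had been adapted to the platforms beforehand. Each female group held 4 mice, and the male groups held 4 control, 2 restraint, 3 PSD and 3 PSD + restraint mice. Since bulk RNA of the gland was sequenced, fewer cells of a type and less RNA per cell cannot be told apart.

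Within the ER, Hspa5 (also called BiP) holds unfolded chains, the disulfide isomerases join their cysteines, and chains that do not fold are sent back to the cytosol for degradation. When unfolded chains pile up, 3 sensors (Ern1, Eif2ak3 and Atf6) raise the expression of these genes, in part through Xbp1. The pituitary is a gland of secretory cells that make large amounts of hormone, and the study asked how PSD and restraint, alone and together, change its transcriptome in females and males.

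The sequences below are shown because they are letters by which the stress response is known to address genes of this kind. Promoters of all 10 genes were found in the RefSeq promoter table (build GRCm38.p6, 250 bases before to 50 after each start site), and both strands were searched for the ER stress response element (CCAAT, 9 bases, CCACG), for its second form (ATTGG, 1 base, CCACG) and for TGACGTG. Capitals mark the letters searched, and each site is written 5′ to 3′ on the strand that holds the match, with 5 bases on either side.
Hspa5, element: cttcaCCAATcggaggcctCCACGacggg
Hsp90b1, upstream element: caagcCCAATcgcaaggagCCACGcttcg
Hsp90b1, downstream element: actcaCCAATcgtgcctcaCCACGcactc
Calr, element: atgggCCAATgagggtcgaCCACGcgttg
Pdia6, element: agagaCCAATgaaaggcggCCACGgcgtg
Herpud1, second form: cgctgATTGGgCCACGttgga
Hspa5, TGACGTG: agcaaTGACGTGagttg
The element of Hspa5 lies at chr2:34772025-34772043 (plus strand), with its first base 65 bases before the RefSeq start site and inside the span that GENCODE M21 gives the gene, and its TGACGTG lies at chr2:34771933-34771939 (plus strand). Hsp90b1 is transcribed from the minus strand. Its upstream element, at chr10:86705638-86705656, is on the minus strand and begins 212 bases before the start, and its downstream element, at chr10:86705533-86705551, is on the plus strand, 107 bases before it. The element of Calr is at chr8:84847075-84847093 (plus strand, opposite to the gene, 162 bases before the start) and that of Pdia6 at chr12:17266491-17266509 (plus strand, 98 bases before it). The Herpud1 site is at chr8:94386377-94386387 (plus strand), 52 bases before the start.

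The first element was thus found in 4 of the 10 promoters (Hspa5, Hsp90b1, Calr and Pdia6) and in 39 of all 32851 promoters, or 0.119%. Its second form was found in Herpud1 and in 12 promoters in all (0.0365%). TGACGTG was found in Hspa5 and in 661 promoters (2.01%), and it shares no bases with the element in the Hspa5 promoter. No match in a window of this length, as in Pdia3, Pdia4, Dnajb9, Xbp1 and Sdf2l1, says only that these exact letters are not in it. The motifs were chosen as known elements of this response, so the counts beside all promoters are a description and not a test.

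The genes lie apart from one another, on chromosomes 2, 6, 8, 10, 11, 12 and 16. Hspa5 (ENSMUSG00000026864.13) spans chr2:34771970-34777547 on the plus strand and its longest transcript has 9 exons. Genes on the other strand overlap Hsp90b1 (1810014B01Rik), Pdia3 (Catsper2), Pdia6 (Atp6v1c2), Dnajb9 (Mir5627) and Herpud1 (Gm15890). The libraries were stranded but the strand setting of the counting is not given in the sources used here, so reads of such pairs may not have been kept apart.

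Library totals ran from 14024465 to 52948531 counts (median 33389717). Levels are given as CPM (read counts relative to the library total, adjusted with TMM factors). The lowest count of any of the 10 genes in any mouse was 762, for Sdf2l1, so that no level rests on few counts. The 10 pituitary markers, among them the hormones Gh, Prl and Pomc, summed to 242889 to 365223 CPM, as the tissue label asks. Male control mouse 1 stood apart in lobe markers, with 233 CPM of the intermediate lobe markers Pax7 and Pcsk2 against 677 to 2770 in the others, and 0.743 CPM of 4 posterior lobe markers against 16.9 to 46.7. Female PSD mouse 1 had 77.8 CPM of the glial gene Gfap against 3.20 to 21.7 in the others. None of the 10 genes was called in any treatment comparison with or without either mouse.

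All 10 genes were well expressed, and their order per transcript length was largely steady from mouse to mouse. On the scale of CPM per kilobase of the longest transcript, Calr, a calcium-binding chaperone of glycoproteins, was the highest (323 ± 35.4, mean ± SD, n = 28), before Pdia3, the isomerase that works with it (303 ± 29.0). Hspa5 (263 ± 31.4) and Hsp90b1, the ER member of the Hsp90 family (236 ± 22.9), followed. Pdia6 (148 ± 16.9), Xbp1 (117 ± 13.5) and Herpud1 (77.6 ± 7.31) lay lower. Pdia4 (68.9 ± 9.48), Dnajb9 (56.9 ± 12.2) and Sdf2l1 (50.3 ± 6.77), the last a partner of Hspa5, closed the order. This order rests on the transcript length used. In CPM without length, Hspa5 had the highest median (973), before Pdia3 (843), Hsp90b1 (756) and Calr (721).

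The steps from Hsp90b1 to Pdia6, from Pdia6 to Xbp1 and from Xbp1 to Herpud1 held in all 28 mice, and they were the 3 steps larger than the sum of both SDs. The other 6 steps were smaller than that sum. Within a mouse, Pdia3 was above Hspa5 and Hspa5 above Hsp90b1 in 27 of 28 mice each, Pdia4 above Dnajb9 in 26, Herpud1 above Pdia4 in 24, Calr above Pdia3 in 22 and Dnajb9 above Sdf2l1 in 21.

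**Figure D1:**
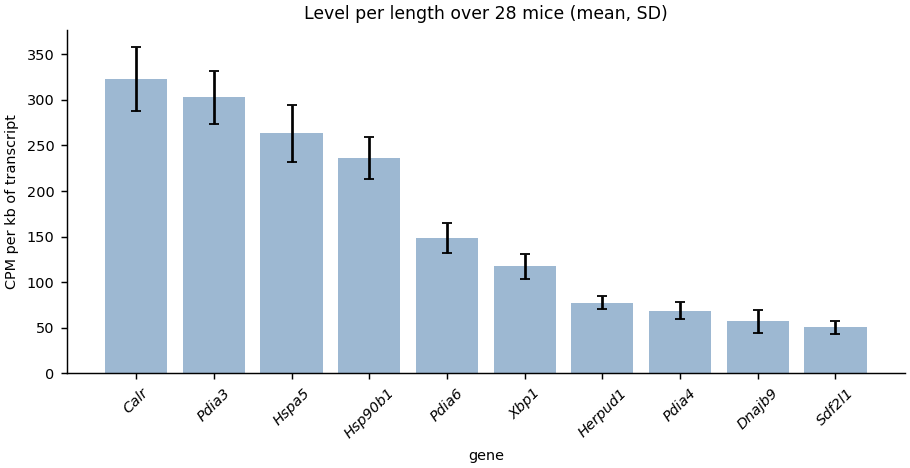
Level of each gene per length. Bars give the mean and whiskers the SD over 28 mice, in CPM per kilobase of the longest GENCODE M21 transcript, and the bars fall from 323 for Calr to 50.3 for Sdf2l1.

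Restraint was compared with home cage control to ask what acute stress changes, PSD with control to ask what sleep loss leaves behind, and PSD + restraint with control to ask what both do together. None of the 10 genes passed the test in any of these comparisons, in all mice or in either sex, and the estimates were small. A gene was called when edgeR's quasi-likelihood test gave it an adjusted p (Benjamini-Hochberg, over all genes tested) of 0.05 or less and its log2 fold change was 0.32 or more in size. In all mice, with sex in the model, 0 of 10 were called after restraint, where 1.14% of the 18936 genes tested were, 0 of 10 after PSD, where 0.671% were, and 0 of 10 after PSD + restraint, where 5.46% were. DESeq2 also called 0 of 10 in each. At an unadjusted p under 0.05, edgeR had 0, 3 and 1 of the genes in the same order. The share of all genes at that limit was counted only for genes lower after PSD in all mice and is given below. With 0.671% to 5.46% of all genes called, 0 of 10 is near the background in each of these comparisons.

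The intervals give the size of change that the data leave room for. After restraint, the 95% intervals of all 10 log2 fold changes lay between -0.23 and 0.27, so each was inside the limit of 0.32 in either direction. After PSD, 8 of 10 intervals were inside that limit, and those of Dnajb9 (down to -0.60) and Pdia4 (down to -0.35) were not. After PSD + restraint, 9 of 10 were inside it, and that of Dnajb9 (down to -0.53) was not. No interval in any of the 16 comparisons made reached a 2-fold change. The median log2 fold change of the 10 genes was 0.03 for restraint, -0.09 for PSD and -0.02 with both, beside medians of 0.00, 0.01 and 0.00 over all genes tested.

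**Figure D2:**
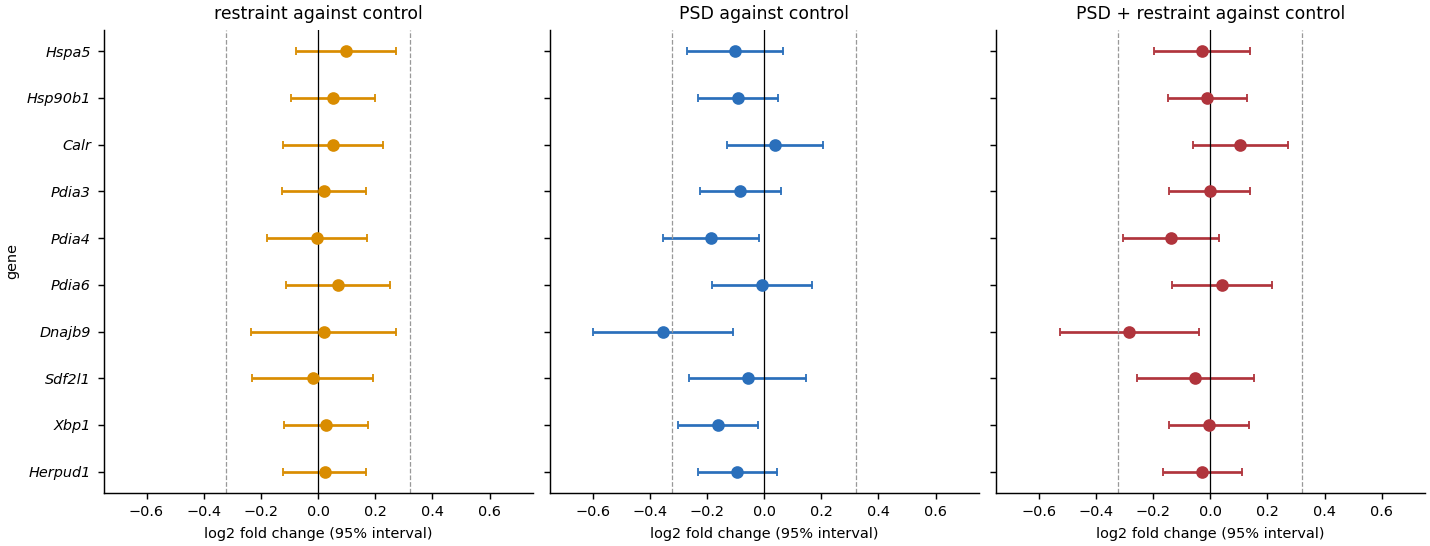
log2 fold change of each gene against home cage control in all mice. Points are estimates of edgeR, whiskers 95% intervals, and dashed lines the limit of 0.32. After restraint all 10 intervals lie between the dashed lines, and after PSD that of Dnajb9 reaches -0.60.

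Hspa5, the main ER chaperone, showed how the groups lay. In females it was at 814, 1074, 887 and 1219 CPM in control mice, at 1112, 987, 825 and 1202 after restraint, at 766, 973, 903 and 762 after PSD, and at 972, 849, 873 and 889.8 after PSD + restraint. In males it was at 970.5, 924, 925 and 1009.6 in control mice, at 1074 and 1007 after restraint, at 992, 959 and 1001 after PSD, and at 1019, 975 and 1102 after PSD + restraint. The female groups overlapped throughout, with the control mice covering the widest range, and the male groups lay close together. Its log2 fold change was 0.10 ± 0.09 (SE) for restraint, -0.10 ± 0.08 for PSD and -0.03 ± 0.08 with both (edgeR adjusted p = 0.808, 0.541 and 0.876).

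Hsp90b1 and Calr, the other chaperones, lay between 605 and 915 CPM and between 545 and 876 CPM in the 28 mice. Their log2 fold changes in the 3 comparisons were between -0.09 and 0.05 for Hsp90b1 and between 0.04 and 0.11 for Calr. Among the isomerases, Pdia3 and Pdia6 had estimates between -0.08 and 0.07.

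Pdia4, a further disulfide isomerase, was lower after PSD by estimate only. It was at 136, 182, 149 and 215 CPM in female control mice and at 135, 157, 147 and 133 after PSD, and at 188, 165, 185 and 189.6 in male control mice and 174, 161 and 168 after PSD. In both sexes the PSD mice lay within or below the range of the controls, and the groups overlapped. The log2 fold change was -0.19 ± 0.08 with an unadjusted p of 0.0323 and an edgeR adjusted p of 0.238, and -0.12 without female control mouse 4.

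Dnajb9, a co-chaperone of Hspa5 that also holds the sensor Ern1 inactive, had the lowest estimate of the 10 after PSD and after PSD + restraint. In females it was at 117, 172, 134 and 249.5 CPM in control mice, at 155, 130.2, 135 and 191 after restraint, at 111, 134, 100.4 and 119.9 after PSD and at 133, 115, 137 and 113 after PSD + restraint. In males it was at 142, 124, 154 and 149 CPM in control mice, at 186 and 145 after restraint, at 119, 129 and 134 after PSD and at 127, 134 and 130.3 after PSD + restraint. The highest control mouse of the females stood well above every PSD mouse, while the lowest control mice of both sexes were inside the range of the PSD mice.

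The log2 fold change of Dnajb9 in all mice was -0.35 ± 0.12 after PSD (unadjusted p = 0.00595, edgeR adjusted p = 0.130) and -0.28 ± 0.12 after PSD + restraint (unadjusted p = 0.0244, edgeR adjusted p = 0.125). Without female control mouse 4, the one at 249.5 CPM, these became -0.21 (adjusted p = 0.326) and -0.14 (adjusted p = 0.362). The sum of the intermediate lobe markers was 703 to 1062 CPM in female controls and 1101 to 2770 after PSD, and 233 to 1068 CPM in male controls and 1090 to 1586 after PSD, although 0 of these 2 markers were called after PSD (1 at an unadjusted p under 0.05 by edgeR). With their score in the model the Dnajb9 estimate after PSD was -0.35.

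Xbp1, whose spliced form switches on many ER genes, was at 235, 284, 253 and 339 CPM in female controls and at 204, 235, 223 and 248 after PSD. The PSD mice lay at or below the lower part of the control range. In males, control mice lay between 213 and 248 CPM and PSD mice between 217 and 243, with full overlap. The log2 fold change in all mice was -0.16 ± 0.07 after PSD (unadjusted p = 0.0253, edgeR adjusted p = 0.215), and -0.10 without female control mouse 4. Counts per gene do not tell its spliced from its unspliced form.

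Those 3 genes, Pdia4, Dnajb9 and Xbp1, were all lower, and 8.81% of all genes tested were lower after PSD at an unadjusted p under 0.05. Sdf2l1 (44.0 to 76.1 CPM) and Herpud1 (128 to 195 CPM), which helps to bring misfolded proteins to degradation, had estimates between -0.09 and 0.02 in the 3 comparisons.

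**Figure D3:**
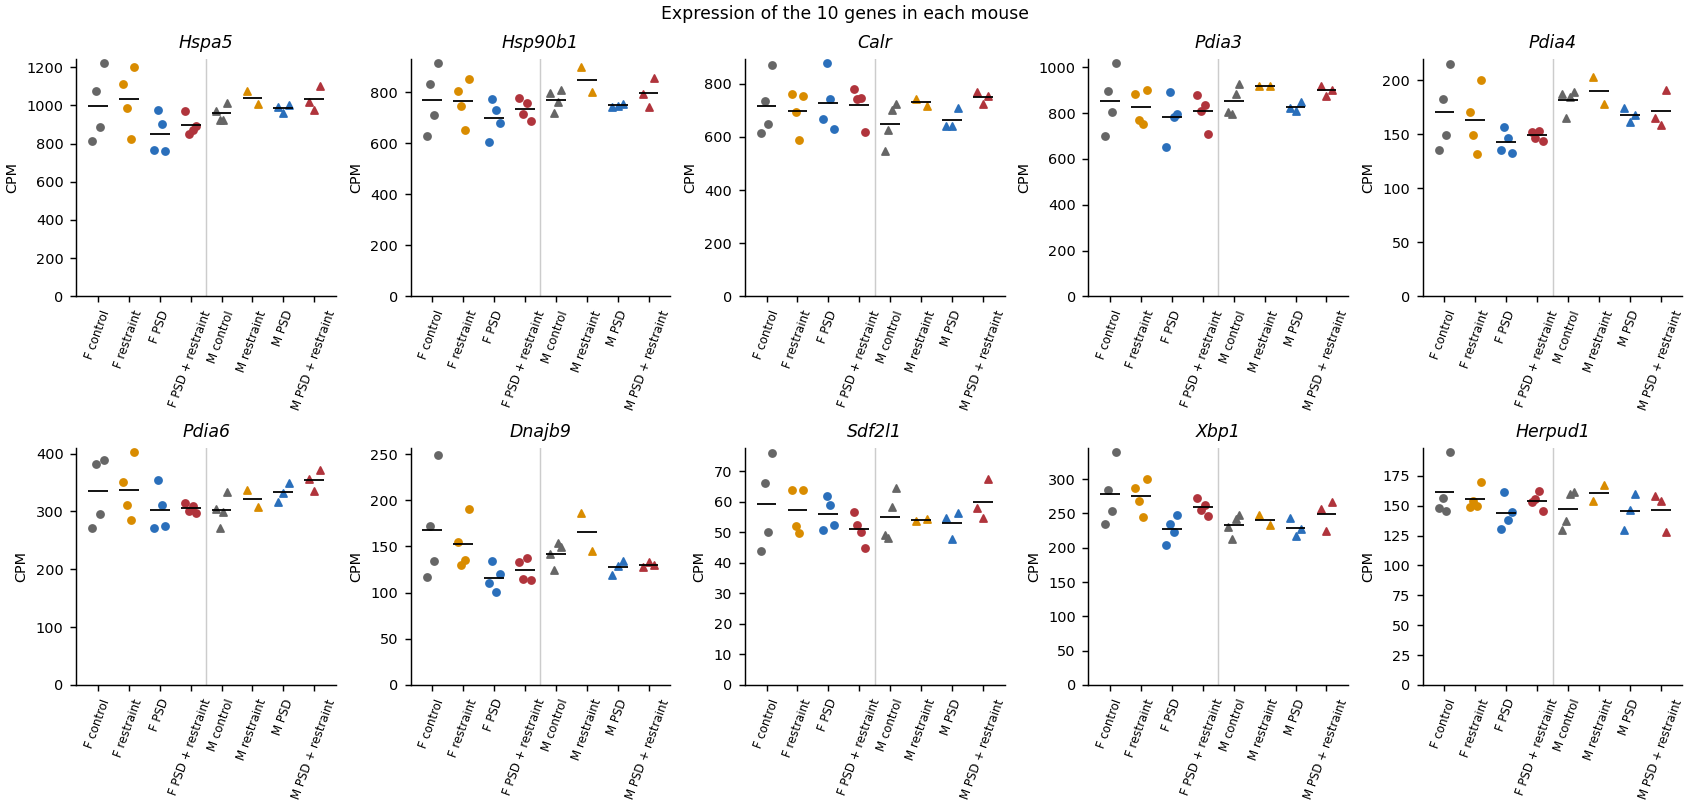
Expression of each gene in CPM, 1 point per mouse, in 4 female groups (F, circles) and 4 male groups (M, triangles), with lines at the group means. The female control mice spread widely, as for Dnajb9 from 117 to 249.5 CPM, and treated groups overlap them.

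The remaining contrasts gave the same count. Among restrained mice, PSD gave 0 of 10 calls (0.0951% of all genes were called), with 1 gene at an unadjusted p under 0.05, Dnajb9 (-0.30 ± 0.13, edgeR adjusted p = 0.306). Among PSD mice, restraint gave 0 of 10 (2.01% of all genes), with Xbp1 the 1 gene under that limit (0.16 ± 0.07, edgeR adjusted p = 0.298). The PSD by restraint interaction gave 0 of 10, as it called 0% of all genes, and none of the 10 was under 0.05 unadjusted. DESeq2 called 0 of 10 in these contrasts too.

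Within females, 0 of 10 genes were called for restraint (0.543% of 18059 genes tested), PSD (0.0277%) and PSD + restraint (2.20%). Within males, 0 of 10 were called for restraint (0.296% of 18271 genes), PSD (0.00547%) and PSD + restraint (2.56%). DESeq2 called 0 of 10 in each of the 6. Unadjusted p-values under 0.05 were found for Dnajb9 and Xbp1 after PSD in females (-0.53 ± 0.19 and -0.28 ± 0.10, edgeR adjusted p = 0.153 for both), for Dnajb9 after PSD + restraint in females (-0.42 ± 0.19, adjusted p = 0.217), and in males for Dnajb9 after restraint (0.22 ± 0.10, adjusted p = 0.976) and for Calr and Pdia6 after PSD + restraint. Without female control mouse 4, the female values of Dnajb9 were -0.27 after PSD and -0.17 after PSD + restraint, and that of Xbp1 after PSD was -0.17. Without male restraint mouse 2, the male value of Dnajb9 after restraint was 0.04, where the 1 restraint mouse left is taken to vary like the other groups. Female intervals were wide: after PSD, 1 of 10 lay inside the limit of 0.32, against 9 of 10 in males.

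Pdia6, an isomerase that acts with Hspa5, was the 1 gene whose treated and control mice did not overlap in a group of 1 sex. Male control mice were at 303, 271, 299 and 334 CPM and PSD + restraint mice at 357, 335 and 372, a log2 fold change of 0.24 ± 0.07 (edgeR adjusted p = 0.106). Of all genes with a mean of at least 1 CPM, 16.0% did not overlap in that comparison. In the other 5 comparisons within a sex, no member was free of overlap, where 6.34% (restraint), 9.09% (PSD) and 15.8% (PSD + restraint) of genes were in females, and 13.1% (restraint) and 10.9% (PSD) in males. In females Pdia6 was at 272 to 389 CPM in controls and 297 to 314 after PSD + restraint.

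Whether a response differed between the sexes was tested directly, as the female minus the male log2 fold change. In all 3 comparisons with control 0 of 10 genes were called, and 0% of all genes were called in each. All 10 estimates were below 0 in each of the 3 tests, with medians of -0.14, -0.14 and -0.20. The 10 genes move together from mouse to mouse and the 3 tests share the control mice, so these are not 10 separate signs. DESeq2 called 0 of 10 in each, and at an unadjusted p under 0.05 the count was 0, 0 and 1 (Pdia6 for PSD + restraint, -0.37 ± 0.16, edgeR adjusted p = 0.662).

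Between the sexes themselves, over all treatments, 0 of 10 genes were called, while 14.9% of all genes were. Pdia4 was lower in females by a log2 fold change of -0.18 ± 0.06 at an edgeR adjusted p of 0.0223, but this change is smaller than the fold limit. Its group means were 143 to 171 CPM in females and 168 to 191 CPM in males. The adjusted p was 0.0544 with the intermediate lobe score in the model. Xbp1 had an estimate of 0.13 ± 0.05 (edgeR adjusted p = 0.0552), and the other 8 genes lay between -0.09 and 0.05.

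Mice of the same group differed from one another, most visibly in females. In female controls the coefficient of variation over 4 mice had a median of 17.2% over the 10 genes and reached 34.9%, against a median of 8.02% and a highest value of 14.2% in male controls. Female control mouse 4 had the highest level of its group for all 10 genes, and female control mouse 1 the lowest for 9. Female restraint mouse 4 was the highest of its group for 9 genes and mouse 3 the lowest for 8. These 4 mice had totals of 38346654, 47530774, 31389996 and 33330586 counts.

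Across mice, the levels of the genes went together. After the mean of each sex and treatment group was taken away, Hspa5 was correlated with Hsp90b1 (Pearson r = 0.94, Spearman rho = 0.95), Pdia4 (0.94 and 0.92) and Pdia6 (0.93 and 0.93) over 28 mice. The permutation p within groups was 1e-05 for each, the smallest that 100000 permutations can give, and 2e-05 for r and 3e-05 for rho after adjustment over the 9 relations tested. For Sdf2l1, r was 0.84, for Pdia3 0.79, for Calr 0.78, for Xbp1 0.78 and for Dnajb9 0.74, with adjusted permutation p-values from 2e-05 to 0.00405 for r and from 4e-04 to 0.0108 for rho, which was 0.81, 0.73, 0.69, 0.71 and 0.64. Herpud1 followed less closely (r = 0.43, permutation p = 0.0618; rho = 0.29, permutation p = 0.189).

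Without the 2 mice farthest from the Hspa5 median (female control mouse 4 and female restraint mouse 3), r was between 0.68 and 0.92 for 8 of the 9 genes and 0.28 for Herpud1. In the 16 females r was between 0.69 and 0.96 for all 9. In the 12 males it was 0.91 for Hsp90b1, 0.87 for Pdia4, 0.79 for Pdia6, 0.76 for Xbp1 and 0.67 for Sdf2l1, but 0.40 for Pdia3, 0.35 for Dnajb9, 0.23 for Calr and -0.32 for Herpud1. All values of a mouse come from 1 library. The Hspa5 deviation had an r of -0.33 with the log2 library total and 0.07 with the intermediate lobe score.

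Among the 10454 genes with a mean of at least 10 CPM, the 3 with the highest r with Hspa5 were Hsp90b1, Pdia4 and Pdia6. Sdf2l1 was in place 14, Pdia3 39, Calr 50, Xbp1 52 and Dnajb9 109, and Herpud1 in place 1660. Outside the lists used here, the 5 genes most like Hspa5 were Clptm1l (r = 0.88), Cct2, a subunit of the cytosolic chaperonin (0.86), Slc35b1, a transporter of the ER membrane (0.84), Atp1b3, a subunit of the sodium pump (0.84), and Pelo, a ribosome rescue factor (0.83).

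**Figure D4:**
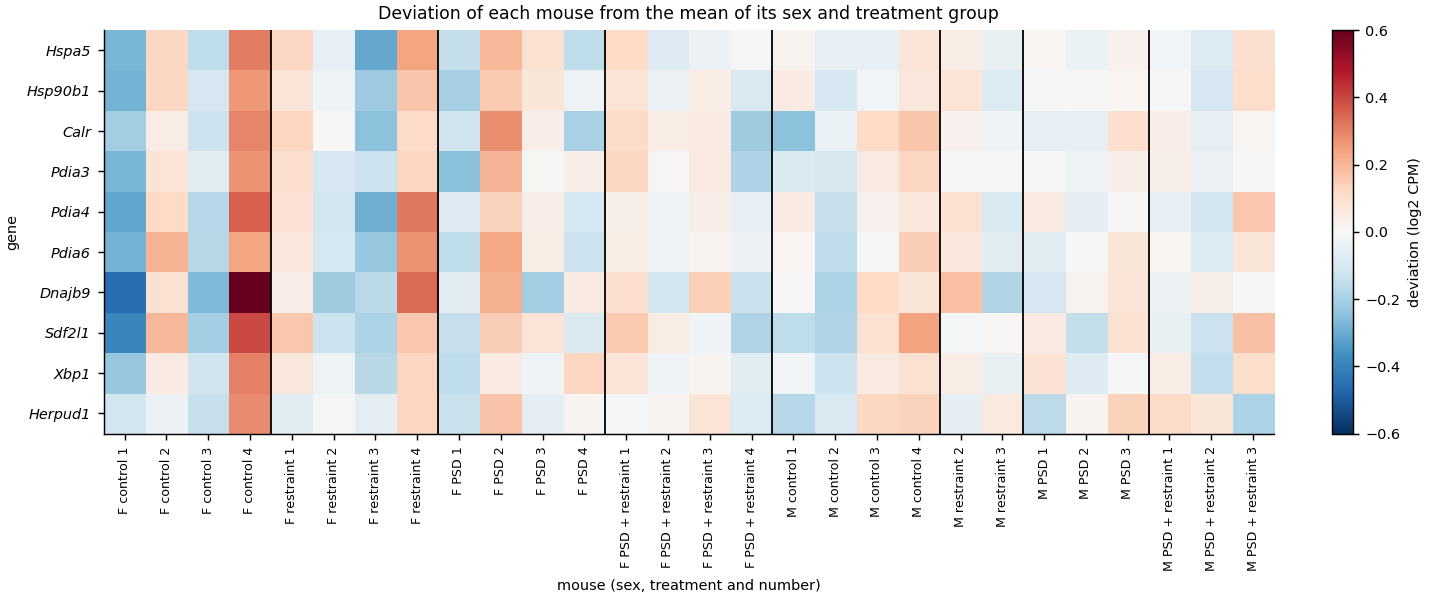
Deviation of each mouse (columns, F female and M male) from the mean of its sex and treatment group, in log2 CPM, for each gene (rows). Columns tend to have 1 colour: female control mouse 4 is above its group mean for all 10 genes, and the male columns are paler.

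The genes around these 10 were taken from 7 lists of the same pathway and its neighbours. The lists were chosen with earlier results of these data known, so their counts beside the share of all genes are a description and not a test. The 26 other folding factors, 17 genes of ER-associated degradation and 8 stress sensors and their factors had 0 calls after restraint, PSD or PSD + restraint in all mice. At an unadjusted p under 0.05, edgeR had 0 genes of these 3 lists after restraint. After PSD it had 4 folding factors, 4 degradation genes and 3 sensors lower, where 8.81% of all genes were. In the same order it had 0, 1 and 0 higher. After PSD + restraint it had 4, 4 and 1 lower and 1, 1 and 0 higher, where the share of all genes was not counted. The median log2 fold changes of the 3 lists after PSD were -0.08, -0.09 and -0.12. Within males, 1 degradation gene, Derl3, rose after PSD + restraint from 9.02 ± 1.13 to 13.9 ± 1.35 CPM (log2 fold change 0.62, edgeR adjusted p = 0.026), as did the sensor Creb3l2 (94.2 ± 8.19 to 120.0 ± 10.3 CPM, 0.35, adjusted p = 0.0359). These were 1 of 17 and 1 of 8 genes, where 2.56% of all genes were called in either direction in that comparison.

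The arm of the response that runs through Eif2ak3 (Perk) and Atf4 had calls where the 10 genes had none. After PSD + restraint in all mice, 5 of its 11 genes rose (Atf3, Cebpb, Ppp1r15a, Nupr1 and Trib3) and 0 fell, where 4.10% of all genes were called higher. Atf3, an early stress-induced factor, went from 2.05 ± 0.760 to 19.8 ± 18.5 CPM in females (n = 4 and 4) and from 1.15 ± 0.322 to 19.4 ± 8.53 CPM in males (n = 4 and 3), a log2 fold change of 3.62 ± 0.39 (edgeR adjusted p = 5.5e-07). Cebpb rose by 1.26 ± 0.28 (adjusted p = 0.00399), Ppp1r15a, which recruits the phosphatase that ends the translation block, by 0.48 ± 0.12 (0.00841), Nupr1 by 0.45 ± 0.13 (0.0238) and Trib3 by 0.78 ± 0.26 (0.0479), all on the log2 scale. The count fell below 5 when any of 18 of the 28 mice was left out. It was 3 without female control mouse 4, male control mouse 3 or male PSD + restraint mouse 2, and 1 with the intermediate lobe score in the model.

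After restraint 1 of the 11 was called, Atf3 (3.09 ± 0.40, edgeR adjusted p = 2.1e-05), where 0.935% of all genes were called higher, and the count was 3 without female control mouse 4 and 2 without female PSD + restraint mouse 1. After PSD 1 was called, Sesn2 (0.40 ± 0.09, adjusted p = 0.0373), where 0.565% were. The count was 0 with the intermediate lobe score in the model, with only the groups compared, and when any of 10 of the 28 mice was left out. At an unadjusted p under 0.05 by edgeR, 5 of the 11 were higher after PSD and 0 lower (median log2 fold change 0.22). Within males 8 were higher and 0 lower after PSD, and within females 1 and 0. Within either sex 0 of the 11 were called after PSD. The share of all genes higher at that limit was not counted, so these unadjusted counts have no background beside them. For restraint among PSD mice, 2 were called, Atf3 (2.96) and Cebpb (1.03), where 1.41% were, and the count was 1 when any of 19 of the 28 mice was left out. Within a sex, Atf3 was called after restraint and after PSD + restraint in both, and Ppp1r15a and Nupr1 after PSD + restraint in males. Atf3, Cebpb and Ppp1r15a are also known as immediate responses to other stimuli than ER stress.

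Genes that bring chains into the ER and glycosylate them had estimates below 0 after PSD in all 23 cases (median log2 fold change -0.17, beside 0.01 over all genes). Of all genes tested 48.0% were below 0, and the 23 estimates share the same control mice, so they are not 23 separate signs. Within females the median was -0.29, with 14 of 23 lower at an unadjusted p under 0.05 by edgeR. Within males it was -0.05, with 2 of 23 lower and estimates up to 0.14. Within either sex 0 were called after PSD, and the share of all genes at that unadjusted limit was not counted. In all mice, 2 of 23 were called after PSD, where 0.106% of all genes were called lower, and 2 after PSD + restraint, where 1.36% were. Both times these were Ssr2, a subunit of the translocon-associated complex, and Ostc, a subunit of the oligosaccharyltransferase. Ssr2 fell from 235 ± 65.4 to 141 ± 18.7 CPM in females (n = 4 and 4) and from 193 ± 14.6 to 159 ± 6.30 CPM in males (n = 4 and 3), a log2 fold change of -0.52 ± 0.12 after PSD (edgeR adjusted p = 0.0349) and -0.43 ± 0.12 after PSD + restraint (0.018). Ostc had -0.43 ± 0.11 (0.0487) and -0.32 ± 0.11 (0.0464). With the intermediate lobe score in the model 0 were called in both comparisons, and for 20 of the 28 mice, leaving that mouse out made the count after PSD 0 or 1.

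Of 16 genes of ER exit and retrieval, 1 was called after PSD + restraint, Kdelr3, a receptor that returns ER proteins (-0.58 ± 0.19, edgeR adjusted p = 0.0414), and 0 after restraint or PSD. The median of the list after PSD was -0.15, with 10 of 16 lower at an unadjusted p under 0.05 by edgeR, where 8.81% of all genes were. Within females the median was -0.25, with 11 of 16 lower at that limit, and within males -0.09, with 3 of 16. Within either sex 0 were called after PSD. The count after PSD + restraint was 0 with the intermediate lobe score in the model, with only the groups compared, and when any of 9 of the 28 mice was left out.

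Chaperones of the cytosol were read as a list beside those of the ER. Of 10 cytosolic heat shock genes, 3 were called higher after restraint (0.935% of all genes): Hspa1a (1.65 ± 0.33, edgeR adjusted p = 0.00469), Hspa1b (1.66 ± 0.34, 0.00629) and Dnajb1 (0.96 ± 0.12, 8.5e-06). Dnajb1 went from 41.8 ± 5.95 to 76.1 ± 21.2 CPM in females and from 36.3 ± 1.38 to 79.0 ± 30.5 CPM in males (n = 4 and 2). Hspa1a and Hspa1b are near-identical copies that share reads, so their split is uncertain, and 1 of the 2 male restraint mice carried 120.5 CPM of Hspa1a against 26.5 in the other. Female restraint mice had 30.3, 57.6, 14.7 and 15.5 CPM of Hspa1a, the last 2 inside the range of 12.0 to 16.7 in female controls, and within females Dnajb1 was the 1 gene of the list called after restraint. For restraint among PSD mice 3 were called, Hspa8 (0.48 ± 0.11), Hsph1 (0.44 ± 0.12) and Dnajb1 (0.65 ± 0.12), where 1.41% of all genes were higher. Leaving out 1 mouse lowered that count to 2 for 14 of the 28 mice, and it was 6 without male restraint mouse 2 or female restraint mouse 3 and 5 without female restraint mouse 4. After PSD + restraint 1 was called, Dnajb1 (0.82 ± 0.11, edgeR adjusted p = 1.8e-05), and after PSD 0 were. In the latter 5 of 10 were lower at an unadjusted p under 0.05 by edgeR, where 8.81% of all genes were.

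**Figure D5:**
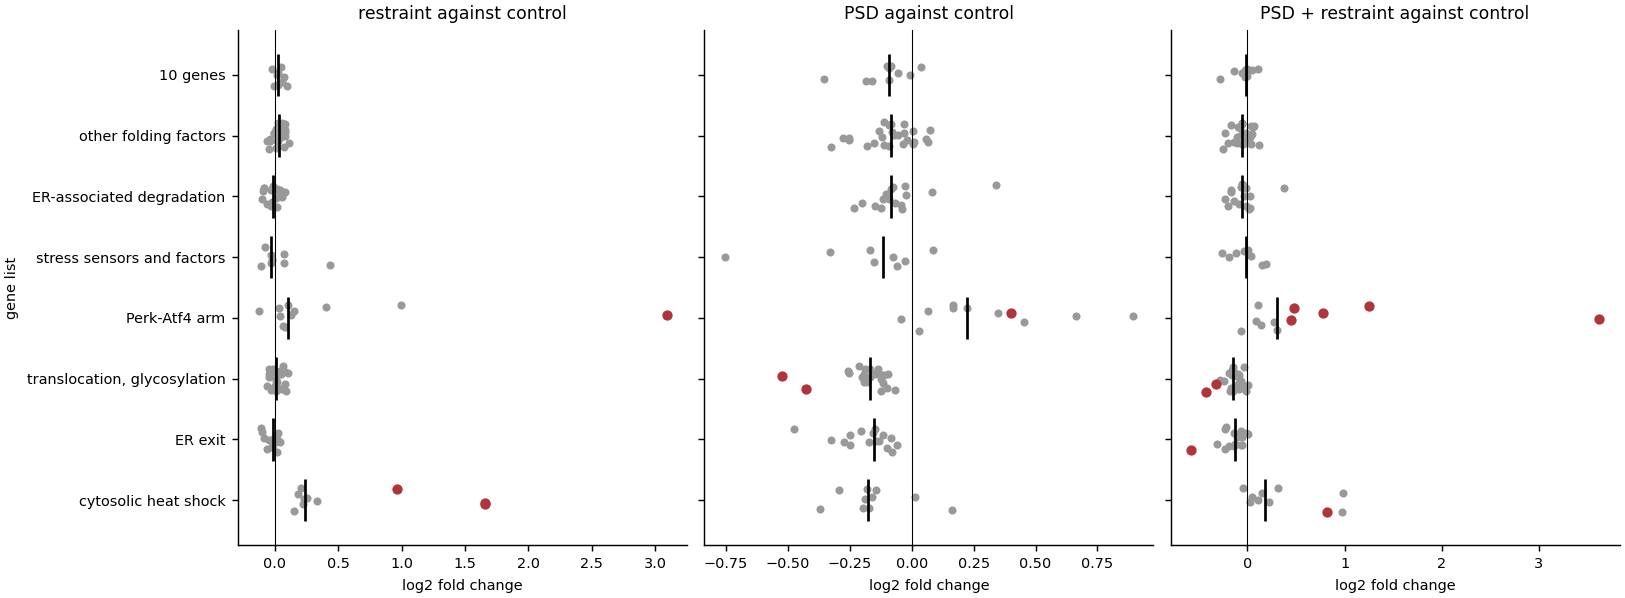
log2 fold changes of the 10 genes and of 7 gene lists against home cage control in all mice. Each point is a gene, red points were called, and black lines are list medians. The 10 genes lie near 0, with a median of 0.03 after restraint, while 5 of 11 genes of the Perk-Atf4 arm are red after PSD + restraint and 3 of 10 cytosolic heat shock genes after restraint, and the horizontal scales differ.

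Between the sexes, 4 of the 11 Perk-Atf4 genes were called lower in females (Trib3, Chac1, Nupr1 and Asns), Trib3 by a log2 fold change of -1.02 ± 0.19 (edgeR adjusted p = 1.1e-04). Of all genes 14.9% were called in either direction, and the share for 1 direction alone was not counted. The sensor Ern1 was called higher in females (0.62 ± 0.09, adjusted p = 8.3e-06), as were Creb3l1 (1.86 ± 0.26, 2.5e-06) and, of the ER exit list, Sec24d (0.34 ± 0.06, 1.3e-04). These were 2 of 8 stress sensors and their factors and 1 of 16 ER exit genes. No gene of the other 4 lists was called between the sexes. There edgeR had 8 folding factors, 4 degradation genes, 3 translocation genes and 4 heat shock genes at an unadjusted p under 0.05, in either direction. The share of all genes at that limit was not counted, so these counts have no background beside them.

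Markers of other cells were read beside these lists. Both intermediate lobe markers had positive estimates after PSD (median 0.71) and after PSD + restraint (median 0.69). Of them, Pcsk2 (1 of 2) was called higher after PSD + restraint, where 4.10% of all genes were. In that comparison 1 of 10 pituitary markers, the hormone gene Pomc, and 1 of 5 macrophage markers, Cd68, were also called higher. After PSD, 1 of 10 pituitary markers, Cga, was called lower, where 0.106% of all genes were. None of the plasma and B cell, blood, brain and posterior lobe markers tested was called in the 3 comparisons with control in all mice. Markers of plasma and B cells, which are rich in ER, summed to 5.45 to 14.8 CPM over the 28 mice, those of macrophages to 57.4 to 84.0, of blood to 386 to 3225, and of brain to 369 to 654, most of it from Snap25, a gene of neurons and endocrine cells. The summed intermediate lobe markers did not overlap between control and PSD mice. They were 703 to 1062 against 1101 to 2770 CPM in females and 233 to 1068 against 1090 to 1586 in males. With their score in the model, lobe content and PSD alone can thus not be told apart. After PSD + restraint the sums were 1027 to 1752 CPM in females, overlapping the controls, and 1133 to 2044 CPM in males, above all controls. Calls lost with the score in the model have no cause assigned in either comparison. The part of any of these markers in the list results was not tested.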

How the data were processed

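The authors sequenced stranded mRNA libraries as read pairs, used MapSplice for alignment (mm10) and HTSeq 0.9.1 for counting over UCSC gene models (mode intersection-nonempty). Their deposited table holds raw counts per gene and mouse. A deposited table of normalized counts and the authors' own comparisons were not used. Mice were grouped by the sample labels. Totals were 14024465 to 52948531 counts, and all 37 pairs of mice of a group differed beyond counting noise (chi-square per degree of freedom of at least 7.48).

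In R 4.3.3, edgeR 4.0.16 (TMM, filterByExpr, quasi-likelihood F test) was fitted over the whole table. The model for all mice held PSD, restraint, their interaction and sex, each sex was fitted alone, and sex differences in response were contrasts among the 8 group means. Calls needed 0.05 or less after Benjamini-Hochberg adjustment over all genes and a log2 fold change of 0.32 in size. log2 CPM used a prior count of 2. DESeq2 1.42.0 (the authors used 1.16.1), other filters and factors, covariates and leaving out each mouse were tried. Scripts were tested on simulated data. The 10 genes, the lists and the motifs were chosen with earlier results of these data known. From each list the text names genes called in a comparison with at most 3 calls, and the 3 smallest p after PSD + restraint, and Trib3, Chac1 and Asns, with the markers called, beyond that rule, after their values were seen. Positions, exons and lengths come from GENCODE M21 (GRCm38, of which mm10 is the UCSC name). Permutations (100000, within groups, two-sided) were run in Python 3.11.15, adjusted over the 9 relations.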

Additional observations from a re-analysis of the deposited data

How the results depend on the processing

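None of the 10 genes was called in any treatment, interaction or sex-difference contrast by DESeq2, with DESeq2 size factors, without a filter, with at least 10 counts in every mouse, with only the groups compared, with the intermediate lobe score, without the fold threshold, under the replicate block or without any 1 mouse (0 to 0 calls), except that only the groups compared was not run for the interaction, the sex differences in response and sex. Between the sexes the count became 1 (Pdia4) without the fold threshold; the block could not be fitted there, since numbers lie within sex. The counts of the neighbouring lists were less stable, and the causes were not tested. For translocation and glycosylation genes called lower (2 after PSD, 2 after PSD + restraint), the count after PSD was 1 with DESeq2 size factors, without a filter or under the replicate block, and 0 with the lobe score or only the groups compared; after PSD + restraint it was 1 with DESeq2, at least 10 counts, only the groups compared or the replicate block, 0 with the lobe score and 4 without the fold threshold. For Perk-Atf4 genes called higher (1 after restraint, 1 after PSD, 5 after PSD + restraint, 2 for restraint among PSD mice), only the groups compared gave 2 after restraint, 0 after PSD and 1 among PSD mice, DESeq2 gave 2 after PSD, the lobe score 0 after PSD and 1 after PSD + restraint, and no filter or the replicate block 1 among PSD mice. Cytosolic heat shock genes called higher after PSD + restraint (1) were 2 with at least 10 counts and 3 with only the groups compared, which gave 6 among PSD mice (3). ER exit genes called lower after PSD + restraint (1) were 3 without the fold threshold and 0 with the lobe score, the replicate block or only the groups compared. Leaving out 1 mouse gave 0 to 2 (PSD) and 1 to 3 (PSD + restraint) translocation genes, 1 to 3, 0 to 2, 3 to 5 and 1 to 2 Perk-Atf4 genes, 2 to 4, 1 to 3 and 2 to 6 heat shock genes (restraint, PSD + restraint, among PSD mice) and 0 to 2 ER exit genes. Leaving out any 1 of 13 (after PSD + restraint) or 20 (after PSD) mice moved the translocation counts by over 1.5 times, as did 13 (PSD) and 19 (among PSD mice) for the Perk-Atf4 counts, 6 for the heat shock count after PSD + restraint and 14 for the ER exit count.

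All 15 estimates with an unadjusted p under 0.05 kept their sign under every alternative run for them, and the 9 correlations over 28 mice did so under the 2 alternatives run for each, while that of Herpud1 was negative within males (-0.32). Mice of different groups that share a number did not deviate together (r from -0.35 to 0.33 in 24 female pairs and from -0.22 to 0.12 in 15 male pairs), so the replicate number does not pair them, and the replicate block is given as an alternative only. The edgeR tests set each difference against a spread estimated over all mice of a fit and moderated across genes. With 2 to 4 mice a group this spread is known only roughly, and the wide female control group limits what could be seen in females. DESeq2 gave Pdia6 after PSD + restraint in males an adjusted p of 0.0309, below the fold threshold.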
